A study of Homo sapiens with 16 samples.

Results

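SLC26A2 and 6 genes that activate, carry or remove sulfate were followed through 16 RNA libraries of a human breast cell line. The 7 genes are the sulfate transporter SLC26A2, the PAPS synthases PAPSS1 and PAPSS2, the PAPS transporters SLC35B2 and SLC35B3, and the heparan sulfate sulfatases SULF1 and SULF2, out of 78894 genes in the count table. They were picked by symbol. SLC26A2 was chosen by its measured rise in the GDF11 wells. Its values in any comparison that uses the T288P wells are therefore given as a description with no test. The other 6 were named for their function, though with earlier results of these data known. All 7 were among the 16790 genes that passed the low-count filter, SULF1 on few counts.

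MCF10DCIS.com is a premalignant derivative of MCF10A, a breast epithelial line, and forms lesions like ductal carcinoma in situ. A single PCSK5-/- clone of it received V5-tagged, tetracycline-regulated PCSK5 alleles that the guide RNA could not cut, and each allele is represented by 1 polyclonal, hygromycin-selected line. The study compares the wildtype allele (WT), the M452I allele and the T288P allele, and its title calls M452I a recessive hypomorph. The group T288P+GDF11 is the T288P line given 250 ng/ml recombinant mature GDF11 from start to end. No other line was given GDF11. Comparisons of T288P+GDF11 with WT or M452I therefore differ in both line and GDF11, whose parts cannot be told apart. Every group, controls included, was plated at 5000 cells per well in medium with 2% matrigel, and harvested on day 8, with doxycycline at 1 µg/ml added from day 4 onward. Each group had 4 wells. The wells of a group come from the same line, so the p-values below measure only the spread between these wells. PCSK5 encodes a proprotein convertase that cuts the precursors of secreted proteins, and GDF11 is a secreted ligand of the TGF-beta family.

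Cells take up inorganic sulfate through exchangers such as SLC26A2, which is best known from cartilage, where its loss leaves proteoglycans poorly sulfated. PAPS synthases join sulfate to ATP to make PAPS, the activated sulfate donor, and SLC35B2 and SLC35B3 carry PAPS into the Golgi, where sulfotransferases place sulfate on heparan and chondroitin chains and on proteins. SULF1 and SULF2 work outside the cell and trim sulfate groups from finished heparan sulfate, a chain that binds growth factors and morphogens.

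The sequence before the start is printed for the 4 members that had a promoter entry and a long enough stretch outside the gene. The sequences are RefSeq promoters on GRCh38.p14, of which 5 of the 7 members had entries, without the bases that GENCODE places inside the gene. PAPSS1 had an entry but is not printed, because most of its window lies inside the gene. Where RefSeq lists several starts, as for SLC35B3, SULF2 and SLC35B2, the first listed start was taken. SLC26A2 lies at chr5:149960508-149960736 on the plus strand, SLC35B3 at chr6:8435612-8435795, SULF2 at chr20:47786628-47786877 and SLC35B2 at chr6:44257891-44258140, these 3 on the minus strand. Each reads 5′ to 3′, and capitals mark AGAC, the short letters that SMAD proteins bind, on either strand (GTCT on the reverse).
SLC26A2: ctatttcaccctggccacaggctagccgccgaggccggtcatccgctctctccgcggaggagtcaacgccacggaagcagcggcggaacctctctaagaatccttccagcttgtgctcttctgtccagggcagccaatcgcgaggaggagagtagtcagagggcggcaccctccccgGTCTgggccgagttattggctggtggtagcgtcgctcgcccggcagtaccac
SLC35B3: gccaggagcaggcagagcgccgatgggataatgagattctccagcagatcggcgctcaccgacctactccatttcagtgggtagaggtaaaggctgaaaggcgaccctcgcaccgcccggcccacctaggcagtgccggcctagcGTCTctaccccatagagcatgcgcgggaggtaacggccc
SULF2: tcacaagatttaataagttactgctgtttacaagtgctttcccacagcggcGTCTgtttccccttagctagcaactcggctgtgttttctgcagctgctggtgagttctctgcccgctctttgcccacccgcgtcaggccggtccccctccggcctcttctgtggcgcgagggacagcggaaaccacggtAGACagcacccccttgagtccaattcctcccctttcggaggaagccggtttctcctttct
SLC35B2: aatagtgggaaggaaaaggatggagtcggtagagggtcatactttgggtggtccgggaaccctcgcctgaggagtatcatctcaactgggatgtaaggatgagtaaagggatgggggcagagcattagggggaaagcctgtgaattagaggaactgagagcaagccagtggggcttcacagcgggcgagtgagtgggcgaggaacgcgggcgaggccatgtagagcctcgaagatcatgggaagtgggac
AGAC is common: 77.5% of 35116 promoter windows of 250 bases hold it on some strand, with a median of 1 match. The 250-base windows of these starts hold 1 match in SLC26A2 (73 bases before the start), 2 in SLC35B3 (1 of them in the bases not printed), 2 in SULF2 and 0 in SLC35B2. The longer forms CAGACA, found in 13.6% of all windows, and GTCTAGAC, found in 0.2%, were absent from all 4, as was the AP-1 motif TGANTCA, found in 6.6%. AGAC lies within both longer SMAD forms. The counts depend on the start chosen: another listed SULF2 start has 3 AGAC and 1 CAGACA in its window, and another SLC35B2 start has 1 AGAC. These are matches of letters and show no binding.

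The libraries held 28.4 to 50.8 M counts. PCSK5 was present in every well at 25.3 to 66.8 CPM (counts per M counts, scaled with TMM factors), and the counts do not separate the added allele from the edited locus. Among the untreated cultures 2 wells stood apart from their groups. On the first principal component, which held 27.1% of the variance, the score of M452I replicate 4 was 37.49 where its group otherwise had -44.73 to -32.93. That of T288P replicate 1 was -43.02 where the remaining T288P wells had 2.15 to 8.81, and T288P+GDF11 ranged from 44.14 to 63.56. Ribosomal protein genes took 8.66% of the counts in M452I replicate 4 and 11.8% to 12.1% in the other M452I wells. Apart from the profile ranking, which was not repeated, results that these 2 wells change are also given without them.

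The summed level of 8 breast epithelial markers, all tested, was 5862 to 7116 CPM in the 12 untreated wells and lower, at 5105 to 5518, in the 4 T288P+GDF11 wells. Most of this sum comes from ITGB4 and KRT5. Against T288P, edgeR called 3 of the 8 lower and 0 higher (37.5%, beside 12.9% of all genes tested). TP63 alone had a higher mean with GDF11 than in T288P, 30.5 against 25.7 CPM. Of 8 fibroblast markers 2 were tested. The sums over all 8 were 3.95 to 5.74 CPM in untreated and 5.83 to 8.43 in GDF11 wells, and COL3A1, LUM and THY1 were at 0 in all 16 libraries. Of 5 endothelial markers 2 were tested, and the sums over all 5 were 0.498 to 1.37 CPM in untreated and 2.12 to 3.53 in GDF11 wells. Of 5 leukocyte markers 2 were tested, and the sums over all 5 were 0.358 to 1.23 CPM in untreated and 0.992 to 2.35 in GDF11 wells. Against T288P, edgeR called 2 of 2 endothelial markers higher (100%, beside 12.9% of all genes), at these low levels. It called 0 of 2 fibroblast and 0 of 2 leukocyte markers. The part of these shifts in the results below was not tested. All cultures derive from a single clone of an epithelial line. In bulk libraries, a change in the share of cells that express a marker and a change in RNA per cell cannot be told apart.

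SLC26A2 (ENSG00000155850; GENCODE 29 on GRCh38, chromosome 5, 149960737 to 149993455, plus strand) stood at 86.04, 39.76, 60.70 and 47.07 CPM in T288P+GDF11 replicates 1 to 4. The untreated T288P wells held 3.55, 12.20, 10.30 and 13.81 CPM, replicate 1 being the lowest of all 16 libraries. The lowest GDF11 well lay above the highest T288P well, and 10.2% of all genes tested show the same separation. The means were 58.4 ± 20.4 CPM with GDF11 and 9.96 ± 4.51 without (SD, n = 4), a 5.84-fold difference (log2 fold change 2.55, SE 0.55). Without M452I replicate 4 and T288P replicate 1 the log2 fold change was 2.27 (SE 0.24). The GDF11 wells were themselves uneven, the highest being 2.16 times the lowest.

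In WT, SLC26A2 measured 4.47, 5.74, 7.13 and 5.23 CPM, a mean of 5.64 ± 1.12 (SD, n = 4). The M452I wells held 5.34, 5.00, 5.33 and 24.73 CPM. The first 3 of these lie inside the WT range and replicate 4 lies above every other untreated well, though still below the lowest GDF11 well. M452I against WT is the comparison whose wells did not serve to choose SLC26A2. The log2 fold change was 0.83 (SE 0.55; edgeR adjusted p = 0.830), so no difference was called, and without M452I replicate 4 it turned to -0.12 (SE 0.40; edgeR adjusted p = 0.925), the M452I mean falling from 10.1 ± 9.76 (n = 4) to 5.22 ± 0.191 CPM (n = 3). T288P against WT stood at 0.82 (SE 0.55), and at 1.10 (SE 0.23) without both wells, as a description. The mean of the 3 other T288P wells was 12.1 ± 1.76 CPM. The order of the 4 groups by mean was WT, T288P, M452I, T288P+GDF11, and the wells of the first 3 overlap. Without the 2 wells the order became M452I, WT, T288P, T288P+GDF11, the 3 T288P wells lay above all WT wells, and the log2 difference of M452I from T288P moved from 0.01 (SE 0.54) to -1.21 (SE 0.26). The 2 wells were left out after seeing the data, and are the highest M452I and the lowest T288P well for SLC26A2. Leaving them out lowers the M452I mean and raises the T288P mean by construction, so the new order and smaller SE do not test the alleles.

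**Figure D1:**
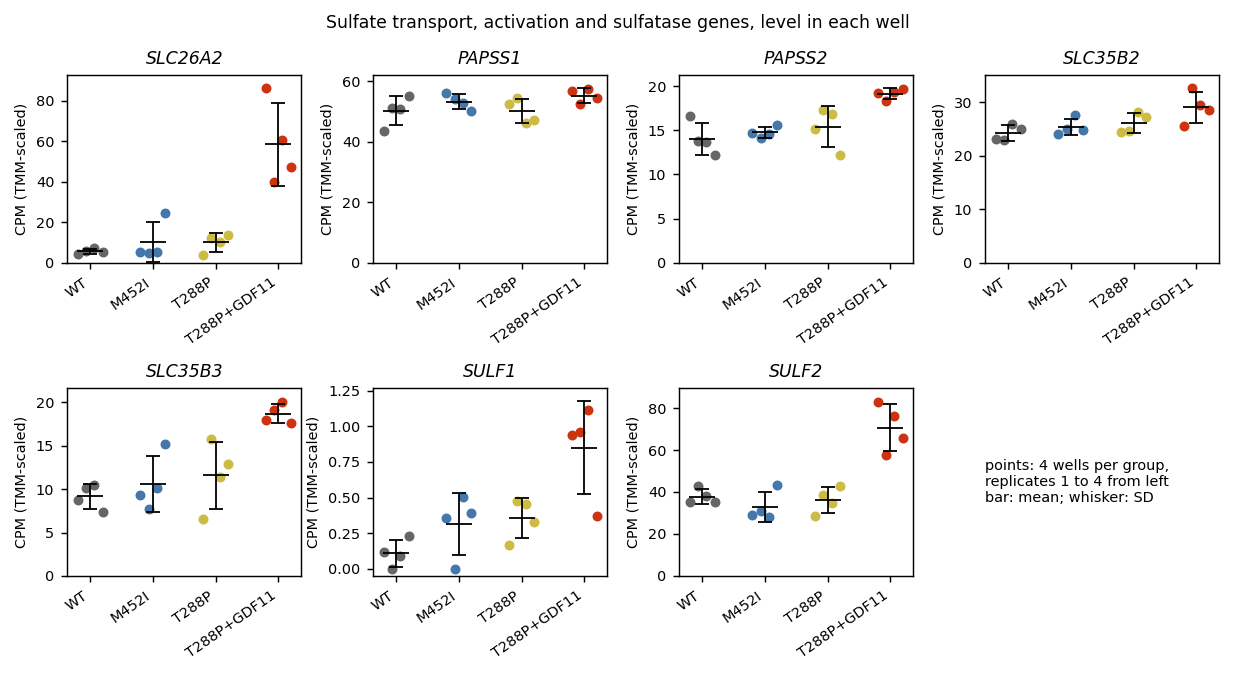
Each panel plots 1 of the 7 genes, with CPM on the vertical axis (linear) and the 4 groups on the horizontal axis. Points are wells and the bar is the group mean ± SD (n = 4). For SLC26A2, SLC35B3, SULF2 and PAPSS2 all 4 T288P+GDF11 points lie above all 12 untreated points, and the M452I point at 24.73 CPM in the SLC26A2 panel stands far from the other 3.

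M452I replicate 4 was not displaced in SLC26A2 alone. Relative to the mean of the other M452I wells its log2 level was higher by 2.23 for SLC26A2, 0.94 for SULF1, 0.75 for SLC35B3 and 0.57 for SULF2, while PAPSS2 (0.10), SLC35B2 (-0.04) and PAPSS1 (-0.11) were near the others. T288P replicate 1 deviated the other way, by -1.74 for SLC26A2, -1.10 for SULF1, -1.01 for SLC35B3 and -0.44 for SULF2, with PAPSS2 (-0.01), PAPSS1 (0.09) and SLC35B2 (-0.12) again close to 0. In M452I replicate 4 the transcripts of PCSK5 (1.17), the matrix protein FN1 (0.82), the integrin subunit ITGB6 (0.64) and the TGF-beta target PMEPA1 (0.60) were also higher. In T288P replicate 1 the deviations were -0.60 for PCSK5, -0.45 for ITGB6, -0.40 for PMEPA1 and -0.03 for FN1.

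Transcript length moved with the same wells. Across the 15639 tested genes with a GENCODE exon length, M452I replicate 4 differed from the other M452I wells by a median log2 of -0.185 over the genes of up to 2.51 kb and 0.226 over those above 6.98 kb, the ends of 4 length classes of like size. In T288P replicate 1 the medians ran from 0.147 in the shortest class to -0.072 in the longest. SLC26A2, with 8.61 kb of exons, is longer than 84.5% of these genes, and SLC35B3, with 2.83 kb, is not in the longest class. Between T288P+GDF11 and T288P the 4 class medians lay between -0.06 and 0.017. The part of length in these values was not tested.

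Levels can be compared between genes only per length, here as CPM per kb of exons. SLC26A2 was low in WT, at 0.656 CPM per kb, below its relative SLC26A6 (1.87), an exchanger of several anions, and above SLC26A11 (0.262), another sulfate transporter. SLC26A2 held 1.16 CPM per kb in T288P and 6.79 in T288P+GDF11. In these 2 groups SLC26A6 held 2.13 and 1.99, and SLC26A11 0.327 and 0.378. Neither relative was called with GDF11: SLC26A6 had a log2 fold change against T288P of -0.10 (SE 0.12; edgeR adjusted p = 0.649) and SLC26A11 of 0.21 (SE 0.38; edgeR adjusted p = 0.759). SLC26A1, another sulfate transporter of the family, had at most 0.18 CPM in any well and was not tested. The PAPS synthases were led by PAPSS1 in every group, with 14.4 CPM per kb in WT against 3.44 for PAPSS2. Of the PAPS transporters, SLC35B2 (10.3 in WT) exceeded SLC35B3 (3.24), and of the sulfatases SULF2 (5.69) exceeded SULF1 (0.0115).

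**Figure D2:**
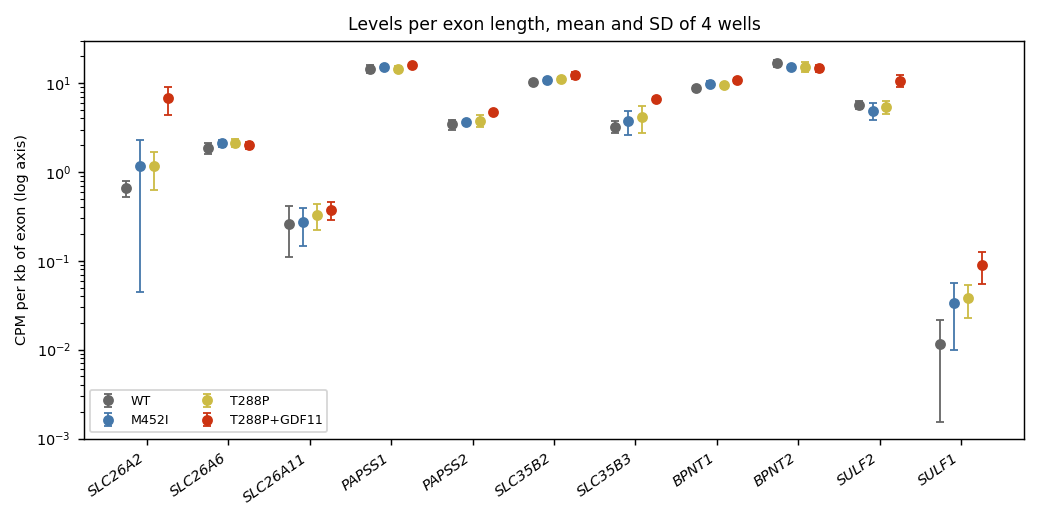
The vertical axis is CPM per kb of exons on a log scale, and the horizontal axis lists the members with related sulfate transporters and the PAP phosphatases BPNT1 and BPNT2. Points are group means and bars ± SD over 4 wells. SLC26A2 moves from 0.656 in WT to 6.79 in T288P+GDF11, while PAPSS1, SLC35B2, SLC26A6 and BPNT2 keep nearly the same height in all 4 groups.

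PAPSS1 (ENSG00000138801; chromosome 4, 107590276 to 107720452, minus strand), the more abundant PAPS synthase here, held 56.70, 52.30, 57.55 and 54.32 CPM in T288P+GDF11 and 52.36, 54.57, 46.21 and 47.26 CPM in T288P. WT wells held 43.64, 51.24, 50.95 and 55.09 CPM, and M452I wells 55.99, 54.02, 52.83 and 50.19. The 4 groups overlap, and no comparison called the gene. With GDF11 the log2 fold change against T288P was 0.14 (SE 0.08; edgeR adjusted p = 0.283).

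PAPSS2 (ENSG00000198682; chromosome 10, 87659613 to 87747705, plus strand), the second synthase, was highest in the T288P+GDF11 wells, with 19.18, 18.34, 19.35 and 19.74 CPM. T288P wells held 15.14, 17.35, 16.84 and 12.19 CPM, WT wells 16.57, 13.74, 13.65 and 12.19, and M452I wells 14.74, 14.09, 14.63 and 15.56. No GDF11 well overlapped an untreated well. Even so the difference from T288P, 0.32 (SE 0.12) on the log2 scale, missed the threshold (edgeR adjusted p = 0.0787), and DESeq2 called it (adjusted p = 0.0406). Over all alternatives tried for this value the adjusted p ran from 0.0406 to 0.178. PAPSS2 was higher in T288P+GDF11 than in WT by 0.45 (SE 0.12; edgeR adjusted p = 0.00768), and than in M452I by 0.38 (SE 0.12; edgeR adjusted p = 0.0287), where the line differs as well. The call against M452I was lost when any of 6 single wells was left out, with an edgeR adjusted p of 0.0568 to 0.0728.

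SLC35B2 (ENSG00000157593; chromosome 6, 44254096 to 44257890, minus strand), which moves PAPS into the Golgi, held 25.54, 32.56, 29.47 and 28.54 CPM with GDF11 and 24.51, 24.61, 28.11 and 27.22 CPM in T288P. WT wells held 23.19, 22.92, 26.00 and 24.96 CPM, and M452I wells 24.00, 25.06, 27.52 and 24.82. The lowest GDF11 well lies within the range of every untreated group. Against T288P the log2 fold change was 0.15 (SE 0.09; edgeR adjusted p = 0.280), and against WT the gene was called at 0.26 (SE 0.09; edgeR adjusted p = 0.0383). That call was lost without the low-count filter (adjusted p = 0.0924) and without any of 5 single wells (0.0597 to 0.0930).

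SLC35B3 (ENSG00000124786; chromosome 6, 8411463 to 8435611, minus strand), the second PAPS transporter, held 17.98, 19.08, 20.04 and 17.63 CPM with GDF11. T288P wells held 6.50, 15.70, 11.34 and 12.88 CPM, WT wells 8.72, 10.16, 10.44 and 7.38, and M452I wells 9.30, 7.67, 10.09 and 15.14. Its GDF11 wells are close together and lie above all 12 untreated wells, of which the lowest is T288P replicate 1. SLC35B3 rose with GDF11 by 0.68 on the log2 scale against T288P (SE 0.22; edgeR adjusted p = 0.0472). The T288P+GDF11 wells lay above WT by 1.02 (SE 0.22; edgeR adjusted p = 0.00222) and above M452I by 0.83 (SE 0.22; edgeR adjusted p = 0.0144), where the line differs as well. The first of these calls is marginal: it was lost in 13 of the 16 fits that left out a single well, with the largest adjusted p, 0.136, when T288P replicate 1 was absent. With both wells that stand apart left out, the value was 0.49 (SE 0.14; edgeR adjusted p = 0.0267), and over all alternatives the adjusted p ran from 0.0145 to 0.136. The call against M452I was lost without M452I replicate 2 (edgeR adjusted p = 0.0577).

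SULF2 (ENSG00000196562; chromosome 20, 47656348 to 47786616, minus strand) is the more abundant of the extracellular sulfatases. It held 82.98, 57.83, 76.00 and 65.76 CPM with GDF11 and 28.35, 38.49, 34.69 and 42.77 CPM in T288P. WT wells held 35.01, 43.00, 38.01 and 35.36 CPM, and M452I wells 28.91, 30.76, 28.02 and 43.28. The lowest GDF11 well exceeds the highest untreated well, M452I replicate 4. SULF2 rose with GDF11 from a mean of 36.1 ± 6.12 CPM in T288P to 70.6 ± 11.1 CPM (SD, n = 4), by 0.97 on the log2 scale (SE 0.15; edgeR adjusted p = 0.000527). The T288P+GDF11 wells lay above WT by 0.90 (SE 0.15; edgeR adjusted p = 0.000288) and above M452I by 1.11 (SE 0.15; edgeR adjusted p = 0.000145), where the line differs as well. Without both wells that stand apart the rise over T288P was 0.87 (SE 0.11; edgeR adjusted p = 3.51e-05). Every alternative tried for SULF2 against T288P kept the call.

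SULF1 (ENSG00000137573; chromosome 8, 69466624 to 69660915, plus strand), the paralog of SULF2, was near the limit of detection. The wells of WT held 4, 0, 4 and 7 counts, those of M452I 10, 0, 23 and 13, those of T288P 5, 22, 13 and 11, and those of T288P+GDF11 32, 44, 45 and 12. In the 2 wells at 0, a count of 0 allows up to 0.0779 CPM (WT replicate 2) and 0.0834 CPM (M452I replicate 2), taking 3 counts as the limit of counting error. The group means were 0.108 ± 0.0937, 0.312 ± 0.218, 0.356 ± 0.143 and 0.848 ± 0.327 CPM in that order (SD, n = 4). With GDF11 the log2 fold change was 1.24 against T288P (SE 0.73; edgeR adjusted p = 0.280), and SULF1 was called against WT at 2.98 (SE 0.82; edgeR adjusted p = 0.0108), a fitted value that depends on how 0 counts are handled.

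Counted over the members other than SLC26A2, edgeR called 2 of 6 higher and 0 lower in T288P+GDF11 against T288P, where 12.9% of all genes tested were called. The median log2 fold change of these 6 was 0.499, beside -0.015 over all genes. Against WT, 5 of 6 were called higher, where 28.9% of all genes were called, and against M452I 3 of 6, where 21.2% were called. These 3 comparisons share the GDF11 wells, and the members were named with earlier results known, so the counts describe the list only. The wells of 3 of the 6 (PAPSS2, SLC35B3 and SULF2) all lay above the 12 untreated wells, a separation shown by 5.05% of all genes tested.

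Between the alleles, no member was called. In M452I against WT 0 of 7 members passed edgeR, where 0.0238% of all genes were called, and their median log2 fold change was 0.084. The largest estimate was that of SULF1 at 1.56 (SE 0.83; edgeR adjusted p = 0.819), and SULF2 alone had a negative estimate, -0.21 (SE 0.15; edgeR adjusted p = 0.830). In T288P against WT 0 of 6 passed, where 0.0417% of all genes were called, with SLC35B3 at 0.34 (SE 0.22; edgeR adjusted p = 0.704) and SULF1 at 1.74 (SE 0.83; edgeR adjusted p = 0.587). In M452I against T288P 0 of 6 passed, where 0.00596% of all genes were called. Over all genes the unadjusted edgeR p was under 0.05 for 1058, 1425 and 366 genes in these 3 comparisons, and DESeq2 called 30, 77 and 3.

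Leaving out M452I replicate 4 and T288P replicate 1 changed that picture for SLC35B3 and SULF2. SLC35B3 then averaged 9.02 ± 1.23 CPM in M452I and 13.3 ± 2.21 in T288P (SD, n = 3 each), and was called higher in T288P than in WT (by 0.54 in log2, SE 0.14; edgeR adjusted p = 0.0374) and lower in M452I than in T288P (-0.56, SE 0.15; edgeR adjusted p = 0.0188). SULF2 averaged 29.2 ± 1.40 CPM in M452I and 38.7 ± 4.04 in T288P, and was called lower in M452I than in T288P (-0.40, SE 0.12; edgeR adjusted p = 0.0288). Without the 2 wells, 2420 of all genes (14.1%) were called between M452I and T288P and 698 (4.06%) between T288P and WT, so these 2 members are part of a wide shift. The fit was chosen after seeing which wells stood apart, and the calls rest on 3 wells in M452I and in T288P. For both genes the wells left out were the highest of M452I and the lowest of T288P, so their removal moves these 2 means apart by construction.

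The members belong to a wider set of 135 sulfation genes in 10 lists, of which 93 were tested. With GDF11 against T288P, edgeR called 13 of 92 higher and 4 lower, 18.5% beside 12.9% of all genes, and their median log2 fold change was 0.150. Values in brackets below are log2 fold changes of this comparison. In M452I against WT 0 of 93 were called and in T288P against WT 0 of 92. Leaving out T288P replicate 1 cut the GDF11 count to 5 of 93 (CHST3, SULF2, SULT2B1, SDC1 and FAM20B), 5.38% beside 5.91% of all genes in that fit. Leaving out M452I replicate 4 raised it to 24 of 93, 25.8% beside 19.9%. Without both wells 19 of 93 were called, 20.4% beside 13.7%, and ARSB and EXTL2 were no longer among them, while B3GALT6, CHST15, HS6ST2 and TST were.

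Among PAPS turnover genes SLC35B3 alone of 6 was called. BPNT1 and BPNT2, phosphatases that clear PAP, the by-product of sulfation, had log2 fold changes of 0.18 (SE 0.09; edgeR adjusted p = 0.163) and -0.05 (SE 0.10; edgeR adjusted p = 0.798). None of the 5 other SLC26 and SLC13 transporters was called, nor any of 6 enzymes that make sulfate from cysteine and sulfide. Sulfotransferases, which use the PAPS, are held by 4 lists. Of the genes tested in them, 28.6% (2 of 7), 20% (2 of 10), 20% (1 of 5) and 20% (1 of 5) were called, beside 12.9% of all genes. These calls include the epimerase GLCE and a fall, that of SULT2B1. Without T288P replicate 1, CHST3 and SULT2B1 were the only sulfotransferases still called. Of the 7 tested that act on chondroitin and dermatan sulfate, 2 rose: UST, a uronyl 2-O-sulfotransferase, from 2.58 to 7.62 CPM (1.56, SE 0.39; edgeR adjusted p = 0.0147), and CHST3, a chondroitin 6-O-sulfotransferase, from 32.8 to 62.0 CPM (0.92, SE 0.22; edgeR adjusted p = 0.0127). The UST wells read 2.30, 3.12, 2.64 and 2.28 CPM in T288P and 7.62, 8.45, 7.96 and 6.45 with GDF11. For CHST3 M452I replicate 4 was again the highest untreated well, at 49.89 CPM, close to the lowest GDF11 well at 49.98.

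Of 10 heparan sulfate modifying enzymes, 2 rose: HS3ST3A1, a 3-O-sulfotransferase, from 3.39 to 6.27 CPM (0.89, SE 0.26; edgeR adjusted p = 0.0346), and the epimerase GLCE from 20.4 to 26.1 CPM (0.36, SE 0.12; edgeR adjusted p = 0.0487). The tyrosine sulfotransferase TPST1 rose from 13.2 to 19.4 CPM (0.55, SE 0.15; edgeR adjusted p = 0.0246), alone among 5 of its list. Among 5 cytosolic sulfotransferases, SULT2B1, which sulfates cholesterol, fell from 5.22 to 1.91 CPM (-1.44, SE 0.26; edgeR adjusted p = 0.00210). Of 14 sulfatases and their activators, ARSB, a lysosomal chondroitin and dermatan sulfatase, rose beside SULF2, from 1.27 to 2.56 CPM (1.00, SE 0.29; edgeR adjusted p = 0.0312), with overlapping wells.

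Genes that build the chains moved both ways. Of 18 tested, CSGALNACT1, which starts chondroitin chains, rose from 3.36 to 7.04 CPM (1.07, SE 0.28; edgeR adjusted p = 0.0198), as did the linker enzyme B4GALT7 (0.47, SE 0.13; edgeR adjusted p = 0.0194) and EXTL2 (0.70, SE 0.22; edgeR adjusted p = 0.0481). The xylose kinase FAM20B fell from 149 to 115 CPM (-0.38, SE 0.07; edgeR adjusted p = 0.00211). Of 16 core proteins, VCAN (0.47, SE 0.14; edgeR adjusted p = 0.0335) and GPC6 (0.42, SE 0.13; edgeR adjusted p = 0.0436) rose. SDC1, a cell-surface heparan sulfate core protein of epithelia, fell from 2136 to 1469 CPM (-0.54, SE 0.11; edgeR adjusted p = 0.00432), and GPC1 fell as well (-0.53, SE 0.14; edgeR adjusted p = 0.0190). Wells of EXTL2, GLCE, VCAN, GPC6 and GPC1 overlapped between the groups.

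**Figure D3:**
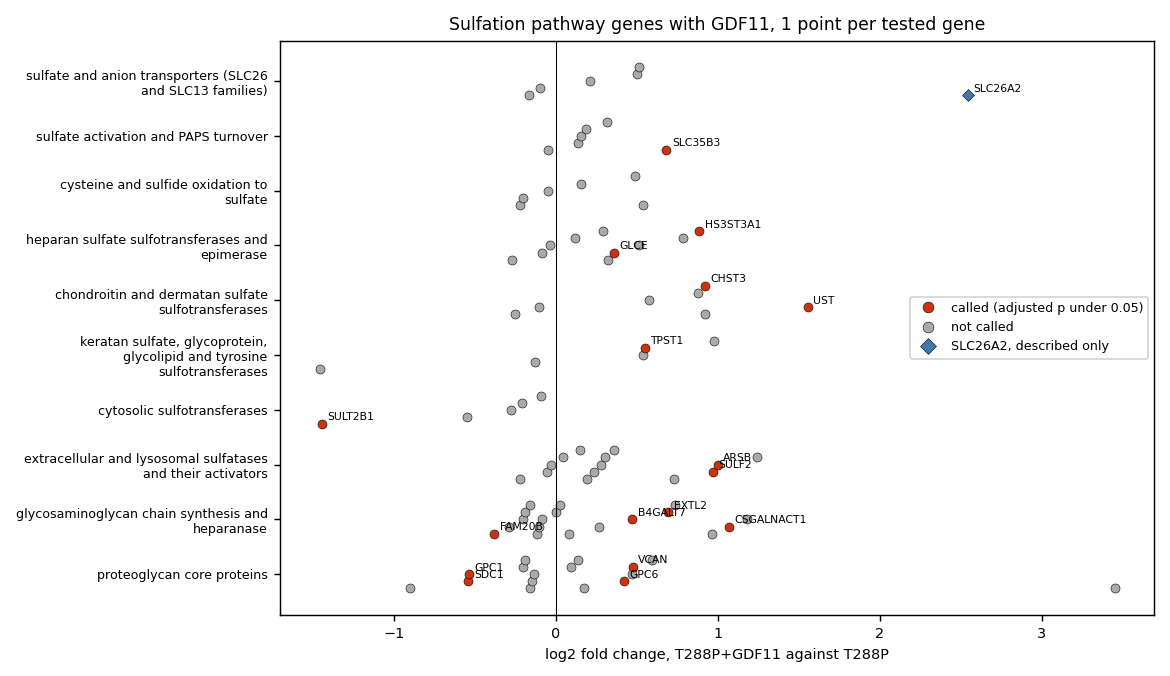
The horizontal axis is the log2 fold change of T288P+GDF11 against T288P and the vertical axis lists the 10 sulfation gene lists, with 1 point per tested gene. Filled red points are the 17 genes called by edgeR, grey points were not called, and the diamond is SLC26A2, shown without a test. SLC26A2 at 2.55 lies to the right of every called gene, the nearest being UST at 1.56, and the grey point farther right at 3.45 is DCN, a low-count core protein that missed the threshold. SLC26A2 was chosen for its rise with GDF11, so its place on this axis follows from that choice.

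The genes whose profile came nearest to that of SLC26A2 were ranked by the root mean square (RMS) difference of mean-centred log2 CPM among 10433 genes, as a description. Over all 16 libraries they were MRGPRX3 (RMS 0.299), TMOD2 (0.444), BICC1 (0.445), CDH19 (0.484), ADAMTS6 (0.520) and KRCC1 (0.527), where SLC26A2 itself varied by 1.46 about its mean. MRGPRX3, a G protein-coupled receptor, went from 3.65 CPM in T288P to 20.8 with GDF11 and CDH19, a cadherin, from 17.1 to 68.8. Over the 12 libraries without added GDF11, the nearest were TMOD2 (0.248), LCMT2 (0.267), KRCC1 (0.272), NNT-AS1 (0.293), ZSCAN30 (0.299) and RNF170 (0.310), against 0.779 for SLC26A2 itself. All 6 were highest among the untreated wells in M452I replicate 4, as was SLC26A2. All 6 were also lower in T288P replicate 1 than in the other T288P wells. The ranking was not repeated without these 2 wells, so their part in the likeness was not tested. Only TMOD2, an actin-capping tropomodulin, and KRCC1 are in both sets of 6. NNT-AS1 shares 3.3% and ZSCAN30 3.0% of its exon bases with neighbouring genes, and whether reads of these stretches were told apart is not known. Among the members SLC35B3 ranked 191 and SULF2 213 over 16 libraries, and SLC35B3 141 and SULF2 1312 over the untreated 12, while PAPSS1 ranked 3689 and 5188.

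**Figure D4:**
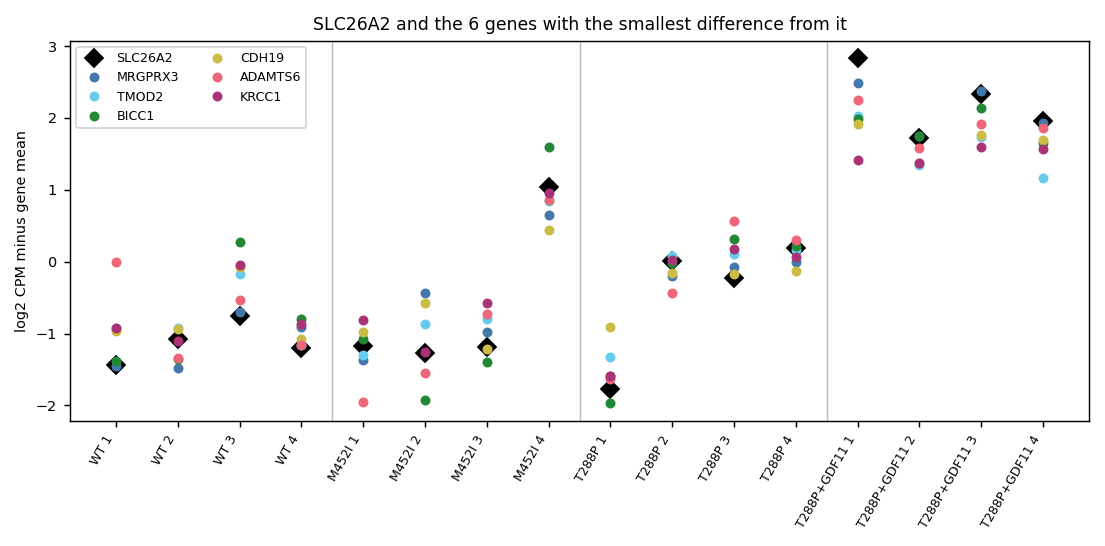
The vertical axis is log2 CPM minus the gene's mean over 16 libraries, and the horizontal axis lists the 16 wells by group. Diamonds are SLC26A2 and circles the 6 genes nearest to it. All 7 genes are highest in the GDF11 wells, and each is higher in M452I replicate 4 than in the other M452I wells and lower in T288P replicate 1 than in the other T288P wells. The 6 genes were picked for their likeness to SLC26A2 over these same wells, so the shared pattern follows from that choice.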

How the data were processed

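RNA from 16 wells was poly(A)-selected and sequenced as paired reads, per the labels' protocols. The authors deposited whole-number counts per gene, not normalized. Per the submitters' processing notes, the reads were handled with HISAT2, whose version is not given, and with StringTie 2.2.1, on GRCh38. How counts per gene were made, with which annotation and strand setting, is not given in the sources used here. Values of 1 and 2 were about equally frequent (ratio 0.97 to 1.1), so mates may have been counted separately, and counting limits cover counting error only. Each column name matched 1 library title, and 0 columns were left unused.

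Counts were tested in R 4.3.3 with the edgeR 4.0.16 quasi-likelihood F test (robust, TMM factors, filterByExpr at a minimum count of 10), with all 16 libraries in 1 model. Adjustment was by Benjamini-Hochberg over 16790 genes, with calls made below an adjusted p of 0.05. The SE is the absolute log2 fold change over the square root of F. The test was first checked on simulated counts drawn independently for each gene and well. That simulation held no well that stands apart, so it does not cover such wells. CPM are counts per M counts with TMM factors, as mean ± SD.

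Coordinates and exon lengths come from GENCODE 29 on GRCh38. SLC26A2 shares 2.9% of its exon bases with TIGD6, and SULF2 1.4% with NCOA3, both on the opposite strand. The strand setting is not given, so whether such reads were told apart is not known. The profile ranking took genes with a mean of at least 3 CPM (log2 scale, prior count 2) and a symbol, and the text names the nearest 6. Otherwise the text names the members, each called gene of the sulfation lists, and SLC26A1, SLC26A6, SLC26A11, BPNT1 and BPNT2. DCN, MRGPRX3 with CDH19 levels, and the genes FN1, ITGB6 and PMEPA1 were picked after their values were seen. The members, lists and tests were chosen with earlier results of these data known.

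Alternatives were DESeq2 1.42.0, limma-voom (limma 3.58.1), RLE factors, no low-count filter, at least 50 counts in 4 libraries, a block for the replicate number, a model of only the 2 groups compared, and each well left out in turn. A fit without M452I replicate 4 and T288P replicate 1 was added after seeing the data. No 2 wells of a group agreed within sampling noise (chi-square per gene 11.6 to 133 over 24 pairs).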

Additional observations from a re-analysis of the deposited data

Results flagged for a closer look

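The SLC26A2 level of 24.732 CPM in M452I replicate 4 lies far from the other 3 M452I wells, at 5.34, 5.00 and 5.33 CPM. Its gap to the nearest of them is 0.983 of the whole range of the group, above Dixon's 95% critical value for 4 samples. Of 28 groups checked (7 genes in 4 groups) 1 passed, and chance alone marks about 1 in 20. The well has the lowest ribosomal protein share of the M452I wells (8.66%) and raised levels of SULF1, SLC35B3, SULF2 and PCSK5, and the part of these in the value was not tested.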

How the results depend on the processing

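Depth limits SULF1, which had 15 to 133 counts a group, and the wells of a group are from 1 line. The replicate numbers do not pair the wells: 24 same-number correlations ran from -0.197 to 0.174, and 6 wells correlated best with their own number. With the replicate block the members called stayed at 0, 0, 2, 0, 5 and 3 for M452I and T288P against WT, T288P+GDF11 against T288P, M452I against T288P, and T288P+GDF11 against WT and M452I, and the sulfation genes called with GDF11 against T288P went from 17 to 13.

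For T288P+GDF11 against T288P, 1 member was called without the low-count filter, 1 to 3 when single wells were left out, and 3 by DESeq2. Leaving out single wells gave 5 to 24 sulfation genes, with 8, 7 and 11 without T288P+GDF11 replicates 1, 3 and 4. Against M452I, 1 to 3 members were called, with 1 without M452I replicate 2. With both wells that stand apart left out, 3 of 94 sulfation genes were called in M452I against WT (3.19%, beside 3.72% of all genes), 1 of 6 members and 5 of 93 sulfation genes in T288P against WT (5.38%, beside 4.06%), and 2 of 6 members in M452I against T288P (beside 14.1%). SLC26A2 turned direction in M452I against WT without M452I replicate 4 (-0.1169; single wells -0.1169 to 1.0585) and without both (-0.1174), and in M452I against T288P (-0.9365 and -1.2124; single wells -0.9365 to 0.2307). SLC35B3 did in M452I against WT (-0.0252 and -0.0253; single wells -0.0252 to 0.3265). With GDF11 against M452I, SLC26A2 moved from 2.53 to 3.48 without that well. The cause was not tested.

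Of all genes, 1391 were called with GDF11 against T288P without the filter, 1195 without T288P+GDF11 replicate 1 or 3, 1028 without T288P replicate 1 and 3435 without M452I replicate 4, against 2174. With both wells out 640 and 698 genes were called for M452I and T288P against WT, and 6941 for T288P+GDF11 against M452I (3558 with all wells). Leaving out single wells gave 1 to 9 and 1 to 29 for the first 2, and 1661 to 6578 for the last. A fit of only the 2 groups gave 0 for M452I against WT and against T288P, and 2261 for T288P+GDF11 against M452I. For T288P against WT no filter gave 11 and the block 1. The prior count of 0.5 kept all 6 genes nearest to SLC26A2 in both rankings.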

Other observations

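Set against the other untreated lines, the wider sulfation lists gave counts near the background. In T288P+GDF11 against WT, edgeR called 20 of 92 genes higher and 10 lower (32.6%, beside 28.9% of all genes tested), and against M452I 17 higher and 7 lower (26.1%, beside 21.2%). These comparisons share the GDF11 wells with the comparison against T288P. BPNT1, a phosphatase that clears PAP, was called in T288P+GDF11 against WT at a log2 fold change of 0.30 (edgeR adjusted p = 0.0125), a comparison in which both PAPS transporters and PAPSS2 were called as well.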
